A study of Mus musculus with 10 samples.

Results

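Chga, Chgb, Scg2, Scg3, Scg5, Pcsk1, Pcsk1n and Cpe are genes of the regulated secretory granule, the vesicle in which endocrine cells store and process hormones. These 8 genes, chosen by name from the 31053 genes of the count matrices, were followed through 10 single-cell libraries of mouse intestine made in droplets (10x Chromium, 3′ end). Values are counts of unique molecular identifiers (UMIs, 1 per captured transcript molecule), given as counts-per-million (CPM), relative to all UMIs of the same cells.

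Endocrine cells of the gut epithelium pack peptide hormones into dense granules and release them on demand. Chromogranin A (Chga), chromogranin B (Chgb), secretogranin II (Scg2) and secretogranin III (Scg3) are acidic granins that load the granule, and some are themselves cut into peptides. Prohormone convertase 1/3 (Pcsk1) cuts prohormones after pairs of basic residues, and carboxypeptidase E (Cpe) trims the residues left behind. Proprotein convertase inhibitor proSAAS (Pcsk1n) binds and inhibits Pcsk1, whereas Scg5 encodes 7B2, the partner of the related enzyme Pcsk2. In the intestine these transcripts mark enteroendocrine cells.

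ENR-organoids gave 3 libraries, Hyper-organoids 3 and -VE-organoids 2, and there was 1 library of colonic crypts from normal mice and 1 of colonic crypts from mice given dextran sulfate sodium (DSS, a colitis model). The organoids grow from crypts of the proximal small intestine of mice. The study kept C57BL/6, Lgr5-EGFP-IRES-creERT2 and tdTomato reporter mice, and crossed the reporter line with the Lgr5-EGFP-IRES-creERT2 line. The labels do not say which gave which library. ENR medium holds EGF (50 ng/mL), Noggin (100 ng/mL) and R-Spondin 1 (500 ng/mL). Hyper-organoids were grown in the 8C medium of 8 components, namely LDN193189 (0.2 μM), GSK-3 Inhibitor XV (0.1 μM), Pexmetinib (1 μM), VPA (500 μM), EPZ6438 (2 μM), EGF (50 ng/mL), R-Spondin 1 conditioned medium (10%) and FGF2 (20 ng/mL), and -VE-organoids in 8C without VPA and EPZ6438. VPA inhibits histone deacetylases and EPZ6438 inhibits the histone methyltransferase EZH2. Libraries were grouped into culture series by the first character of the library name, which the labels do not explain. Replicate 1 of each organoid group falls in series 2 (ENR at passage 2, the others at passage 1). Replicate 2 falls in series 6 (ENR at passage 7, the others at passage 6). Replicate 3 of ENR- and Hyper-organoids falls in series C, started from primary crypts (passage 3). Whether series 2 and 6 are separate cultures or the same culture at different passages is not stated. The Hyper- and -VE-organoids of series 2 and 6 were set up from ENR-organoids. The comparison of Hyper- with ENR-organoids contrasts both media as a whole, and that of Hyper- with -VE-organoids contrasts the presence and absence of VPA and EPZ6438. Nothing in the labels ties a library to a separate animal, so that p-values measure the spread between these libraries.

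The 8 organoid libraries held 1983 to 4293 cells kept by the authors (22139 in all) and 89124015 to 170019527 UMIs, and the colonic libraries 1132 and 1933 cells with 19906845 and 32397122 UMIs. The authors' annotation places 664 organoid cells, 61 to 107 a library, in an enteroendocrine class. That class was checked against 12 transcription factors of endocrine cells, such as Neurog3 and Neurod1, of which the study had used Neurog3 alone for annotation. Between 95.1% and 95.3% of the class in each group had UMIs of at least 3 of the 12, and 84.9% (Hyper) to 93.5% (ENR) of all cells with at least 3 were in the class. The class was named in the study with Chga and Chgb among its markers, so the level of these genes in it against other cells is a description.

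The promoters of 7 of the 8 genes matched an entry of RefSeq (GRCm38.p6). They are shown because 3 of them carry the cAMP response element TGACGTCA, the binding motif of the CREB family, in the 100 bases before the RefSeq start. Each line gives those bases 5′ to 3′ on the gene's strand, with TGACGTCA and its 5-base ends TGACG and CGTCA in capitals. The first 3 genes have the element and the last 2 have no match.

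Chgb: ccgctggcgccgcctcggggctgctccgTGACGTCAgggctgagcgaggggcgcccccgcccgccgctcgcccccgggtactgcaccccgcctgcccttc
Scg2: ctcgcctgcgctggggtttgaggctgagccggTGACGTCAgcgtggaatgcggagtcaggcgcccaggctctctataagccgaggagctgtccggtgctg
Pcsk1: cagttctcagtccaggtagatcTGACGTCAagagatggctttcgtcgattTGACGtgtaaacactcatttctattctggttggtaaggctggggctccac
Scg5: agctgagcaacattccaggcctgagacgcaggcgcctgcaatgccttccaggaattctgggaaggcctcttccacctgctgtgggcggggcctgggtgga
Pcsk1n: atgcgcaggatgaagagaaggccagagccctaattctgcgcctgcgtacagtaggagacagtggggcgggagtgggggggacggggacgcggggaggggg

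The windows are chr2:132781542-132781641 (plus strand) for Chgb, chr1:79440027-79440126 (minus) for Scg2, chr13:75089757-75089856 (plus) for Pcsk1, chr2:113829092-113829191 (minus) for Scg5 and chrX:7919722-7919821 (plus) for Pcsk1n. The element began 72 bases before the start in Chgb, 68 in Scg2 and 78 in Pcsk1. Of 32851 promoters in the table, 379 (1.15%) hold TGACGTCA in these 100 bases and 10.5% hold TGACG on either strand, a search that also counts every TGACGTCA. Chga and Scg3 had TGACG alone. A match is a string of letters and no evidence of binding.

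The genes lie on 7 chromosomes of mm10 in the GENCODE M21 annotation, and only Chgb and Scg5 share one (chromosome 2). Chga spans chr12:102554969-102565028 and Cpe chr8:64592542-64693054. GENCODE puts some starts elsewhere than RefSeq. The Chgb promoter window above lies inside the gene as annotated in GENCODE, which begins at chr2:132781278, and those of Scg2, Pcsk1 and Scg5 overlap theirs. A gene on the opposite strand overlaps 2 of them, namely Gm37871 inside an intron of Scg3 and Eras over an exon of Pcsk1n (chrX:7919822-7924410).

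In the enteroendocrine class Scg2 was lower in Hyper-organoids than in both other groups, and Pcsk1n was higher than in ENR-organoids. The other 6 genes were not called between Hyper- and ENR-organoids there. A gene was called when edgeR's quasi-likelihood test on UMIs summed per library gave a Benjamini-Hochberg adjusted p under 0.05 over all genes together with a 2-fold or larger change. Every adjusted p is from that test, each log2 fold change is given with its SE, and the log2 value is printed for a gene only where its unadjusted p was under 0.05. Of the 8 genes, 2 were called between Hyper- and ENR-organoids in the class, where 7.40% of 11050 genes were called. One gene was called between Hyper and -VE, where 4.01% of genes were called.

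Scg2 encodes the precursor of secretoneurin. Its level in the class was 438, 426 and 174 CPM in the ENR libraries, 256 and 163 CPM in the -VE libraries and 71.2, 75.1 and 90.4 CPM in the Hyper libraries. All Hyper libraries lay below all others, and the ENR and -VE ranges overlapped. The mean was 346 ± 149 CPM (SD, n = 3) in ENR, 209 ± 65.1 (n = 2) in -VE and 78.9 ± 10.1 (n = 3) in Hyper. The log2 fold change of Hyper against ENR was -2.05 ± 0.28 (adjusted p = 0.00072), and that of Hyper against -VE was -1.43 ± 0.30 (adjusted p = 0.0171). The call against ENR was kept in every fit with one library left out. The call against -VE was lost without Hyper replicate 2 (-1.38 ± 0.35, adjusted p = 0.0624) and without -VE replicate 1 (-1.10 ± 0.35, adjusted p = 0.109).

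The share of enteroendocrine cells with a Scg2 UMI did not follow the level. After each cell was thinned to 10000 UMIs, with shallower cells left out, 19.4%, 27.9% and 20.0% of the class had a Scg2 UMI in the ENR libraries, 20.3% and 20.2% in the -VE libraries and 23.1%, 20.0% and 23.1% in the Hyper libraries. These ranges overlap and rest on 11 to 21 cells with a Scg2 UMI in a library. The groups differed in mean Scg2 UMIs per cell and not detectably in how many cells had one. That mean is not an even property of the class, since few cells, led by the hormone Cck and described below, held most Scg2 UMIs in ENR.

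Pcsk1n gave 103, 62.6 and 85.2 CPM in the ENR libraries, 102 and 50.5 CPM in the -VE libraries and 121, 196 and 166 CPM in the Hyper libraries. The lowest Hyper library was above the highest ENR library. The log2 fold change of Hyper against ENR was 1.02 ± 0.26 (adjusted p = 0.0214). This call, close to the threshold of fold, was lost without ENR replicate 2 (0.82 ± 0.28, adjusted p = 0.0896), ENR replicate 3 (1.08 ± 0.31, adjusted p = 0.0501), Hyper replicate 2 (0.88 ± 0.28, adjusted p = 0.0750) or Hyper replicate 3 (0.99 ± 0.29, adjusted p = 0.0549), and when enteroendocrine cells were taken by the transcription factors (0.78 ± 0.29, adjusted p = 0.0975). Against -VE the log2 fold change was 1.06 ± 0.29 and missed the threshold (adjusted p = 0.0558). Eras overlaps an exon of Pcsk1n on the other strand, and how strand was handled in counting is not given in the sources used here.

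Cpe, the trimming enzyme, stood at 829, 657 and 597 CPM in the ENR libraries, 622 and 496 in the -VE libraries and 371, 478 and 497 in the Hyper libraries. Every Hyper library was below every ENR library. Its log2 fold change of -0.55 ± 0.15 passed on p (adjusted p = 0.0317) but was under a fold of 2, so it was not called.

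Pcsk1, the cutting enzyme, stood at 436, 297 and 291 CPM in the ENR libraries, 164 and 121 CPM in the -VE libraries and 214, 216 and 284 CPM in the Hyper libraries. The -VE libraries were below all others, and the ENR and Hyper ranges did not overlap. The log2 fold changes were -0.44 ± 0.18 for Hyper against ENR (adjusted p = 0.122), 0.72 ± 0.20 for Hyper against -VE (adjusted p = 0.0662) and -1.16 ± 0.21 for -VE against ENR (adjusted p = 0.0535). None passed, and the last one did with culture series as a block (-1.12 ± 0.18, adjusted p = 0.0380).

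Chga had 2109, 1762 and 1630 CPM in the ENR libraries, 774 and 867 in the -VE libraries and 657, 2248 and 1689 in the Hyper libraries. Hyper replicate 1, at passage 1, was the lowest library of all and Hyper replicate 2 the highest, so the Hyper group spanned the ranges of both others (1531 ± 807 CPM, SD, n = 3, against 1834 ± 248 in ENR and 820 ± 65.4 in -VE, n = 2). The log2 fold change was 0.87 ± 0.36 for Hyper against -VE (adjusted p = 0.202) and -1.06 ± 0.36 for -VE against ENR (adjusted p = 0.294). Without Hyper replicate 1 both passed, at 1.22 ± 0.18 (adjusted p = 0.00330) and -1.05 ± 0.17 (adjusted p = 0.0220).

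Chgb followed the same libraries, with 20472, 12862 and 15324 CPM in ENR, 10863 and 10074 in -VE and 5430, 14117 and 10909 in Hyper. Hyper replicate 1 was again the lowest, and no comparison of Chgb reached an unadjusted p under 0.05. Scg5 gave 226, 176 and 160 CPM in ENR, 149 and 108 in -VE and 192, 200 and 193 in Hyper. The -VE libraries were the lowest, with a log2 fold change of Hyper against -VE of 0.58 ± 0.16 (adjusted p = 0.0592) and of -VE against ENR of -0.45 ± 0.16 (adjusted p = 0.315). Scg3 overlapped in all groups, with 156, 90.7 and 75.0 CPM in ENR, 103 and 53.5 in -VE and 75.7, 106 and 98.8 in Hyper.

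Between -VE- and ENR-organoids edgeR called 0 of the 8 genes in the class, where 0.190% of genes were called. At an unadjusted p under 0.05 there were 3 (Chga, Scg5 and Pcsk1), and DESeq2 called 1 (Pcsk1).

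**Figure D1:**
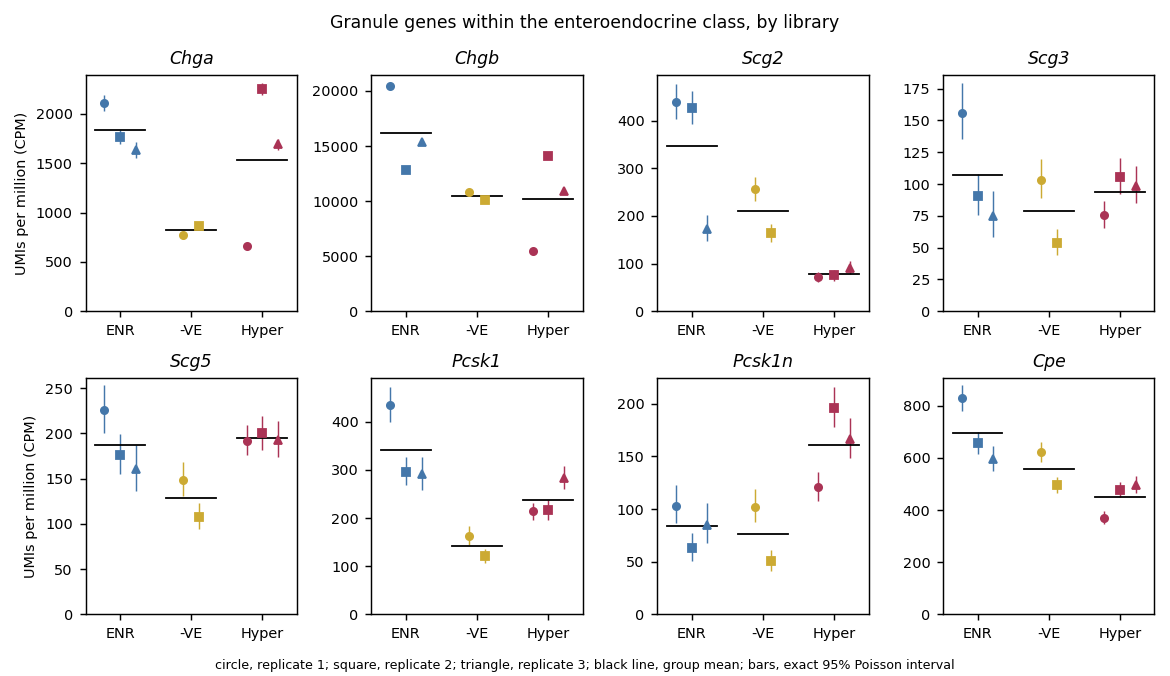
CPM of the 8 genes in the enteroendocrine class of each organoid library (1 panel per gene, y axis from 0; circle, square and triangle, replicates 1 to 3; bars, exact 95% Poisson intervals, which cover counting error only; black line, group mean). Scg2 is lowest in the 3 Hyper libraries (71.2 to 90.4 CPM), and Hyper replicate 1 stands below the other Hyper libraries for Chga and Chgb.

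Granule genes varied among enteroendocrine cells with the hormone a cell made. Cells were grouped by the hormone gene with most UMIs, where that was at least 10 UMIs. The largest groups were led by Tac1 (175 cells), Cck (87), Ghrl (57), Sct (29) and Gip (27), and 269 cells (40.5%) reached 10 UMIs of none. These groups pool cells of all 8 libraries and are described with no test.

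Among these largest groups, pooled over the libraries, Scg2 and Cpe were highest in cells led by Gip or Cck, the transcripts of the hormones of K and I cells. Of the smaller groups, 3 Gcg-led cells of 1 ENR library had 879 CPM of Scg2, and 1 Nts-led cell had 2221 CPM of Cpe. The Gip-led cells were few, with 4, 6 and 4 in the ENR libraries, 5 and 3 in the -VE libraries and 1, 1 and 3 in the Hyper libraries. Summed by group, they had 1307, 985 and 721 CPM of Scg2 and 2197, 2212 and 2489 CPM of Cpe in ENR, -VE and Hyper. Pooled over groups, Scg2 stood at 1002 CPM in Gip-led and 718 CPM in Cck-led cells, against 51.9 CPM in Tac1-led, 96.1 CPM in Ghrl-led and 84.9 CPM in Sct-led cells. Cpe stood at 2291 CPM in Gip-led and 980 CPM in Cck-led cells, against 476 CPM in Tac1-led cells. Hyper replicate 1 had the opposite order of Cck- and Tac1-led cells, with 64.9 and 153 CPM of Scg2 and 405 and 542 CPM of Cpe. Among these 6 groups Chga and Chgb were instead highest in Tac1-led cells, at 2798 and 30900 CPM, and Ghrl-led cells had 1568 CPM of Chga but only 1269 CPM of Chgb. Of the same 6 groups, cells with no leading hormone were lowest for 7 of the 8 genes, with 0.971 CPM of Scg2 and 150 CPM of Cpe. Chgb was the exception (1598 CPM).

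The lower Scg2 of Hyper-organoids was seen within Cck-led cells, although few cells stand behind it, and not within Tac1-led cells. The Scg2 level of Cck-led cells was 1398, 1539 and 1159 CPM in the ENR libraries (13, 8 and 6 cells), 916 and 650 CPM in the -VE libraries (10 and 11 cells) and 64.9, 162 and 283 CPM in the Hyper libraries (10, 22 and 7 cells). The 3 groups did not overlap. In ENR these cells held 465 of 564, 383 of 606 and 107 of 169 Scg2 UMIs of the class. In -VE they held 240 of 437 and 244 of 330, and in Hyper 17 of 189, 79 of 162 and 37 of 171. In Tac1-led cells Scg2 was 15.5, 44.4 and 28.6 CPM in ENR, 14.4 and 26.3 CPM in -VE and 153, 28.4 and 32.8 CPM in Hyper, with overlap. Cck itself was lower in the class of Hyper-organoids (log2 fold change against ENR of -2.24 ± 0.51, adjusted p = 0.0135). The cutoff of 10 UMIs therefore need not take the same cells there. Gcg in the class was 5000, 4460 and 1029 CPM in ENR, 2197 and 498 CPM in -VE and 18.8, 12.5 and 10.0 CPM in Hyper. The part of the mix of hormones in the lower Scg2 was not tested. Chga in Cck-led cells was 569, 3672 and 2524 CPM in the Hyper libraries and 1001, 667 and 726 CPM in the ENR libraries, with Hyper replicate 1 below the ENR libraries and the other Hyper libraries above them.

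Pcsk1 was lowest in the -VE libraries in both Tac1- and Cck-led cells. Tac1-led cells had 756, 468 and 589 CPM of Pcsk1 in the ENR libraries, 182 and 154 CPM in the -VE libraries and 254, 339 and 393 CPM in the Hyper libraries, with no overlap between groups. Cck-led cells had 367, 209 and 314 CPM in ENR, 187 and 170 CPM in -VE and 195, 253 and 260 CPM in Hyper, where ENR and Hyper overlapped.

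**Figure D2:**
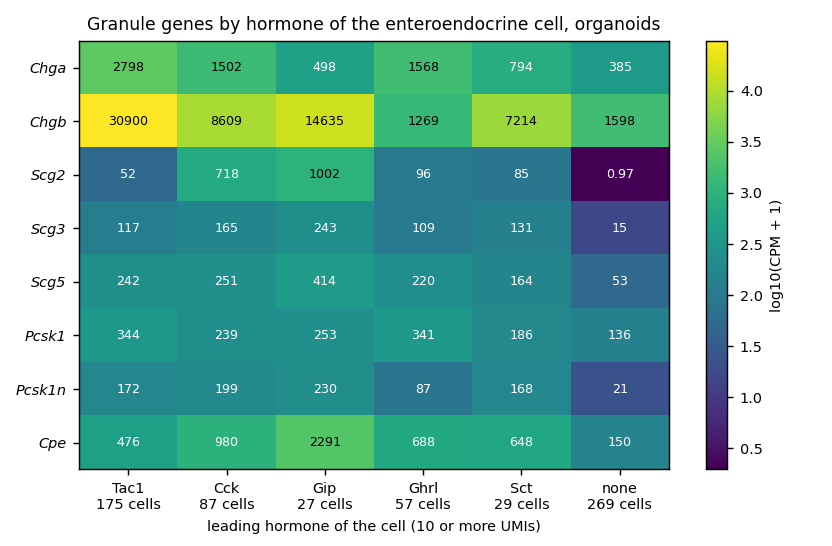
Level of the 8 genes (rows) in enteroendocrine cells grouped by leading hormone (columns, with cell numbers), all organoid libraries pooled (colour, log10 of CPM plus 1; printed numbers, CPM). Scg2 reaches 1002 CPM in Gip-led and 718 CPM in Cck-led cells and 0.971 CPM in cells without a leading hormone.

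Within a library the genes rose and fell together over enteroendocrine cells to unequal degrees. The median Pearson r over the 8 libraries was highest for Scg5 with Cpe (0.681), Chga with Chgb (0.659) and Scg2 with Cpe (0.623), and lowest for Chga with Scg2 (0.0832). After thinning, the median enteroendocrine cell had UMIs of 4 to 6 of the 8 genes, depending on the library. Over 50 sums of cells by class and library, which share library and depth, the genes most like each member by Pearson r of log2(CPM + 1) were Pnmal1 (0.996) for Scg2, Sstr5 (0.998) for Scg3, Scg3 for Chga (0.991), Fev for Chgb (0.990), Rfx6 for Scg5 (0.991), Vwa5b2 for Pcsk1 (0.986), Sez6l2 for Pcsk1n (0.993) and Adcy2 for Cpe (0.980). These sums contrast the enteroendocrine class, where the members are high, with classes where they are rare. Any gene largely confined to that class therefore gives a high r. Unlike the values within a library, these do not show joint variation among enteroendocrine cells. Of 12 listed transcription factors of endocrine cells, all tested in the class, 2 were called as lower and 0 as higher in Hyper- than in ENR-organoids. Of all genes, 7.40% were called there in either direction and 5.96% as higher. One of the 2 was Pax6 (-2.74 ± 0.34, adjusted p = 0.000507).

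Outside the enteroendocrine class the picture was another one. All 8 genes were rare there, but Scg5, Pcsk1, Pcsk1n and Cpe were higher in Hyper-organoids than in both other groups, whereas Chga and Chgb were not called. Against ENR-organoids 4 of the 8 genes were called, where 23.2% of 15738 genes were called and 18.4% were called as higher. Against -VE-organoids the same 4 genes were called, where 18.5% of genes were called and 15.9% as higher. Both counts include Pcsk1n, which passed the filter on low counts through the Hyper libraries, so that its call is no support. The calls that remain are those of Scg5, Pcsk1 and Cpe. Scg2 and Scg3 had too few UMIs for the filter on low counts, so 6 genes were tested. Fewer expressing cells and fewer transcripts per cell cannot be told apart in such sums.

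Cpe in the other cells was 0.365, 0.181 and 0.159 CPM in the ENR libraries, 0.283 and 0.286 CPM in the -VE libraries and 2.07, 1.77 and 1.92 CPM in the Hyper libraries. The log2 fold change was 2.91 ± 0.30 against ENR (adjusted p = 8.81e-05) and 2.62 ± 0.34 against -VE (adjusted p = 0.000558). Pcsk1n was 0.0208, 0.0329 and 0.0113 CPM in the ENR libraries, 0.0583 and 0.0833 CPM in the -VE libraries and 1.19, 0.614 and 0.758 CPM in the Hyper libraries. Its log2 fold change was 5.05 ± 0.44 against ENR (adjusted p = 3.85e-05) and 3.42 ± 0.43 against -VE (adjusted p = 0.00049). These rest on 2, 4 and 1 UMIs in the ENR libraries and 7 and 14 UMIs in the -VE libraries, against 161, 86 and 67 UMIs in the Hyper libraries, so the size of the fitted fold depends on the prior count. Pcsk1n passed the filter on low counts through the Hyper libraries, where it is high, and its call is no support beyond these UMI counts. For both genes every Hyper library was several times above every other library.

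Pcsk1 was 0.657, 0.560 and 0.306 CPM in the ENR libraries, 0.291 and 0.137 CPM in the -VE libraries and 1.33, 1.31 and 1.44 CPM in the Hyper libraries. Its log2 fold change was 1.29 ± 0.33 against ENR (adjusted p = 0.00997) and 2.55 ± 0.41 against -VE (adjusted p = 0.00155). Scg5 was 0.0938, 0.0988 and 0.0908 CPM in the ENR libraries, 0.0916 and 0.0952 CPM in the -VE libraries and 0.677, 0.314 and 0.487 CPM in the Hyper libraries. Its log2 fold change was 2.24 ± 0.34 against ENR (adjusted p = 0.000755) and 2.26 ± 0.39 against -VE (adjusted p = 0.00214). Chga stood at 0.490, 0.403 and 0.272 CPM in ENR, 0.608 and 0.363 in -VE and 0.552, 1.00 and 0.543 in Hyper, and Chgb at 3.83, 1.76 and 1.99 CPM, 2.06 and 2.21 CPM, and 2.08, 4.86 and 2.98 CPM. Chga was higher in every Hyper than in every ENR library but was not called (adjusted p = 0.109) and overlapped between Hyper and -VE, and Chgb overlapped in all comparisons.

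Between -VE- and ENR-organoids edgeR called 0 of the 6 genes tested in the other cells, where 3.03% of genes were called. At an unadjusted p under 0.05 there were 2, Pcsk1 at -1.26 ± 0.40 (adjusted p = 0.0952) and Pcsk1n at 1.62 ± 0.55 (adjusted p = 0.114), and DESeq2 called 1 (Pcsk1).

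**Figure D3:**
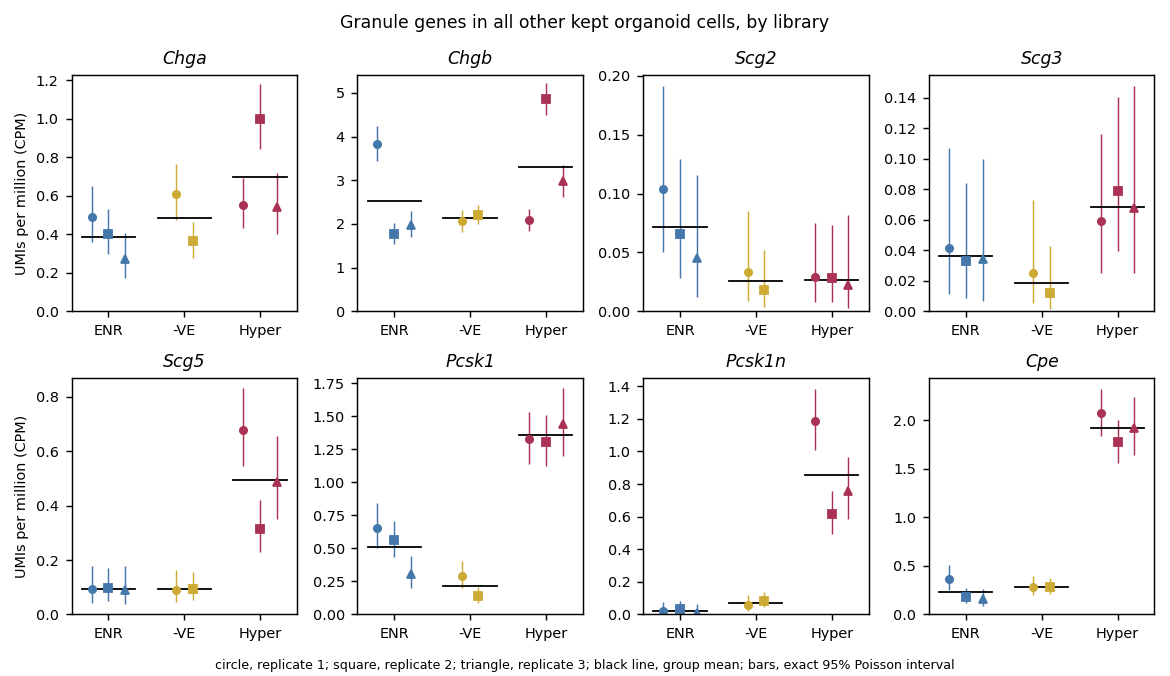
CPM of the 8 genes in all kept organoid cells outside the enteroendocrine class, by library (panels, symbols and bars as in the plot of the class; y axes from 0 and differing between genes). Cpe, Pcsk1n, Pcsk1 and Scg5 are higher in the 3 Hyper libraries, with Cpe at 1.77 to 2.07 CPM against at most 0.365 CPM elsewhere.

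Most of these transcripts came singly. Pcsk1n UMIs were found in 290 of 8028 other cells of Hyper-organoids, against 7 of 6926 in ENR- and 21 of 6521 in -VE-organoids. Of the 290 cells, 268 had 1 UMI and none had more than 3. Cpe was found in 470, 66 and 72 of these cells, with up to 27 UMIs in a Hyper cell, and 15.6% of its UMIs in Hyper-organoids lay in cells with at least 10. Pcsk1 was found in 371, 143 and 44 cells and Scg5 in 152, 29 and 25. After thinning, 1.31% to 2.03% of other cells had a Cpe UMI in Hyper-organoids, against 0.103% to 0.185% in ENR and 0.179% to 0.356% in -VE, and 0.537% to 1.32% had a Pcsk1n UMI, against at most 0.0820% in ENR and at most 0.0764% in -VE.

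The ratios of Cpe and Pcsk1n to Chgb were measured inside and outside the class. In Hyper-organoids there were 0.0339 to 0.0683 Cpe UMIs per Chgb UMI inside the class and 0.365 to 0.993 outside it. In ENR-organoids the values were 0.0389 to 0.0511 inside and 0.0800 to 0.103 outside. For Pcsk1n the Hyper libraries had 0.0139 to 0.0223 inside and 0.126 to 0.569 outside, and the ENR libraries 0.00487 to 0.00556 inside and 0.00545 to 0.0187 outside. For both genes the ratio outside was above that inside in every Hyper library, and for Cpe in every ENR library. The Pcsk1n ratios outside the class in ENR rest on 2, 4 and 1 UMIs, too few to compare with those inside. The part of free RNA from enteroendocrine cells in the values outside the class was not tested. The thinned share of other cells with a Chgb UMI, 1.52% to 3.04% in ENR and 1.47% to 2.92% in Hyper, overlapped between the groups. The median depth was 14295 to 24908 UMIs in class cells and 38569 to 51410 in other cells.

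Seen as shares, 19.0% ± 3.46 (SD, n = 3) of all Cpe UMIs of a Hyper library lay outside the class, against 2.61% ± 0.490 in ENR (n = 3) and 3.84% ± 1.04 in -VE (n = 2). For Pcsk1n the shares were 22.6% ± 9.35, 2.32% ± 1.72 and 7.96% ± 5.81, and for Pcsk1 23.8% ± 4.54, 10.9% ± 2.67 and 9.86% ± 1.77. For Scg5 they were 11.7% ± 3.17, 4.15% ± 1.01 and 5.49% ± 1.90. For the granins Chga, Chgb, Scg2 and Scg3 the mean shares outside were 0.904% to 4.30% in all groups. These shares depend on the level inside the class as well. Scg3 outside the class, too low to be tested, was 0.0417, 0.0329 and 0.0340 CPM in ENR, 0.0250 and 0.0119 CPM in -VE and 0.0589, 0.0786 and 0.0679 CPM in Hyper, from at most 11 UMIs a library.

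The rise of these genes was also read class by class, with no test between classes. Goblet cells held Pcsk1 in all groups, with 7.11, 4.90 and 3.21 CPM in ENR, 2.79 and 0.878 CPM in -VE and 12.3, 12.1 and 13.5 CPM in Hyper, a log2 fold change against ENR of 1.21 ± 0.33 (adjusted p = 0.0156) in a fit of goblet cells alone, where 13.3% of genes were called. Pcsk1 was also higher without overlap, though not called, in stem cells (0.387, 0.324 and 0.524 CPM in ENR, 0.803, 0.751 and 0.662 CPM in Hyper) and in transit amplifying cells, the dividing progeny of stem cells (0.452, 0.464 and 0.121 CPM in ENR, 0.799, 0.816 and 0.804 CPM in Hyper). In -VE it was at most 0.158 CPM in both classes.

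Goblet Cpe was 0.284, 0.196 and 0.291 CPM in ENR (1 UMI in each library), 1.18 and 0.958 CPM in -VE (8 and 12 UMIs) and 7.87, 5.97 and 5.70 CPM in Hyper (48, 38 and 27 UMIs). Goblet Scg5 came from 1, 1 and 2 UMIs in ENR, 3 and 9 in -VE and 31, 11 and 17 in Hyper (5.08, 1.73 and 3.59 CPM). Goblet Pcsk1n had 0 UMIs in the 3 ENR libraries and 6, 6 and 2 in Hyper. Scg2 had 0 UMIs in goblet cells of all 8 libraries.

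Stem Pcsk1n had 0 UMIs among the 12909961, 12332503 and 7636559 UMIs of stem cells in the 3 ENR libraries. A floor of 3 UMIs over that group is 0.0912 CPM. In the Hyper libraries stem Pcsk1n had 76, 40 and 35 UMIs (1.53, 0.770 and 0.965 CPM). The -VE libraries had 0.0645 and 0.0533 CPM. Stem Cpe was 0.155, 0.0811 and 0.131 CPM in ENR (2, 1 and 1 UMIs), 0.290 and 0.187 CPM in -VE (9 and 7 UMIs) and 1.49, 0.944 and 1.32 CPM in Hyper (74, 49 and 48 UMIs). In transit amplifying cells Cpe came from 17, 9 and 7 UMIs in ENR and 141, 90 and 44 in Hyper (2.31 ± 0.37, adjusted p = 0.00084, where 20.9% of genes were called). Pcsk1n there came from 2, 2 and 1 UMIs in ENR and 79, 39 and 30 in Hyper, and Scg5 from 4, 4 and 2 UMIs in ENR and 28, 20 and 13 in Hyper. For these low counts in ENR no fold is given, because the genes entered the fits of single classes through the Hyper libraries where they are high. In the fit of stem cells, where 18.0% of genes were called, Scg5 and Pcsk1 were not called.

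In the revival stem class, of 5 to 26 cells in a Hyper library, Cpe was 37.5, 94.8 and 30.5 CPM, against 3.05 and 4.90 CPM in -VE (8 and 17 cells). The -VE values come from 1 and 3 UMIs, not above a floor of 3 UMIs. The 10, 63 and 46 Cpe UMIs of the Hyper libraries lay in 20.0% of 5, 42.9% of 14 and 30.8% of 26 cells.

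Transcription factors of endocrine cells were measured over the same population, not cell by cell. Of the 12 listed, 11 were tested outside the class and 8 were called as higher and 1 as lower in Hyper- than in ENR-organoids, where 18.4% of all genes were called as higher. Such counts include only factors that passed the filter on low counts, which a gene can pass through the Hyper libraries alone. The summed level of all 12 was 2.47 to 3.55 CPM in ENR, 4.07 to 4.17 CPM in -VE and 11.6 to 14.2 CPM in Hyper. In goblet cells the sum was 40.8 to 60.7 CPM in ENR, 37.9 to 51.9 CPM in -VE and 129 to 204 CPM in Hyper. In a fit without cells with UMIs of at least 2 of the 12, Scg5, Pcsk1 and Cpe were called against ENR. Their log2 fold changes were 2.07 ± 0.36 (Scg5), 1.17 ± 0.36 (Pcsk1) and 2.86 ± 0.30 (Cpe). Cells with fewer of the 12 stayed in, so this fit does not tell which cells held the transcripts. The call of Pcsk1n in this fit is no support, for the reason given above. A set of 5 markers of enteric neurons summed to 0.601 to 0.698 CPM in ENR, 0.994 to 1.19 CPM in -VE and 5.22 to 9.16 CPM in Hyper. Stromal markers (Col1a1, Col3a1, Dcn, Pdgfra) summed to 0.0340 to 0.0905 CPM in ENR, 0.0476 to 0.0833 CPM in -VE and 0.487 to 0.751 CPM in Hyper. Markers of glia, leukocytes and tuft cells overlapped between Hyper-organoids and both other groups, and those of mast cells were 5.21 to 8.05 CPM in Hyper and 3.22 to 5.06 CPM in ENR. The part of any of these lists in the rise was not tested. Rest, the repressor of neuronal genes in other tissues, stood at 34.5 to 44.0 CPM over the 8 libraries and was not called in any comparison.

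The change between culture groups was then compared between both populations in one fit with the library as a block. Against ENR, the change in the class was lower than that in other cells for 5 of the 8 genes, where 8.71% of 16191 genes were called. The difference of the log2 fold changes was -3.49 ± 0.21 for Cpe (adjusted p = 1.22e-11), -3.94 ± 0.55 for Pcsk1n (adjusted p = 1.29e-05), -2.07 ± 0.30 for Scg5 (adjusted p = 2.37e-05), -1.74 ± 0.19 for Pcsk1 (adjusted p = 3.40e-07) and -1.03 ± 0.26 for Chga (adjusted p = 0.00824). The values of Pcsk1n here rest on the same few UMIs outside the class. Chga was no longer called without ENR replicate 3 (-0.89 ± 0.29, adjusted p = 0.0513) or Hyper replicate 1 (-0.70 ± 0.24, adjusted p = 0.0592). Against -VE, Cpe (-2.94 ± 0.22, adjusted p = 1.64e-09), Pcsk1 (-1.86 ± 0.24, adjusted p = 1.06e-05), Pcsk1n (-2.24 ± 0.46, adjusted p = 0.0034) and Scg5 (-1.59 ± 0.33, adjusted p = 0.00306) were called, where 3.72% of genes were called, and Pcsk1n was lost without -VE replicate 1 (-1.55 ± 0.48, adjusted p = 0.0574). Between -VE and ENR, Chga alone was called (-1.36 ± 0.30, adjusted p = 0.0198), where 0.871% of genes were called. It was lost without ENR replicate 1 (adjusted p = 0.0588) or ENR replicate 3 (adjusted p = 0.0945), and fell under a fold of 2 without -VE replicate 1 (-0.91 ± 0.33). Of the Chga UMIs outside the class, 49 of 73 in -VE replicate 1 and 21 of 61 in -VE replicate 2 lay in goblet cells. Only 1.73% and 0.528% of those goblet cells had a Chga UMI.

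**Figure D4:**
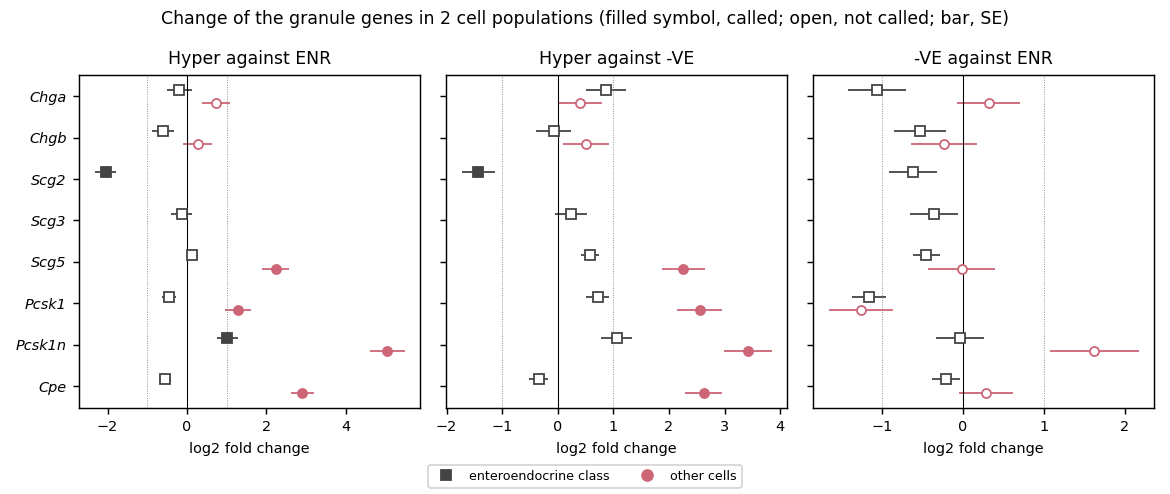
Log2 fold change of each gene (x axis, bars of 1 SE) in the enteroendocrine class (squares) and in other cells (circles) for the 3 comparisons, filled where called, with dotted lines at a fold of 2. In Hyper against ENR, Cpe lies at -0.55 in the class and at 2.91 in other cells, and Scg2 and Scg3 have no circle because they were not tested there.

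Other genes of the granule were read from a list of 32, covering processing enzymes, cargo, transport and exocytosis. In the class 2 of 30 tested were higher in Hyper- than in ENR-organoids and 0 lower, namely Nucb2, a secreted calcium-binding protein (1.45 ± 0.22, adjusted p = 0.00151), and Resp18 (1.01 ± 0.25, adjusted p = 0.0181), where 5.96% of genes were called as higher. Against -VE the 2 were Ptprn, a granule membrane protein (2.20 ± 0.35, adjusted p = 0.0044), and Resp18 (1.35 ± 0.28, adjusted p = 0.0173), where 3.52% of genes were called as higher. Both shares of the list are close to the background. The median log2 fold change of the list against ENR was 0.05 in the class.

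Outside the class 16 of 29 tested genes of the list were higher than in ENR-organoids and 0 lower, against the 18.4% of all genes called as higher. The median log2 fold change of the 29 was 1.20 (all genes, -0.01). Such counts and medians cover only genes that passed the filter on low counts, which a gene can pass through the Hyper libraries alone. They are a description and no support for a rise of the list. The highest 4 were Snap25, a SNARE of vesicle fusion (6.14 ± 0.26, adjusted p = 1.59e-06), the synaptotagmin Syt13 (4.53 ± 0.39, adjusted p = 3.46e-05), the vesicle GTPase Rab3b (4.18 ± 0.24, adjusted p = 5.15e-06) and Rims2, which docks vesicles (3.22 ± 0.50, adjusted p = 0.000815). Against -VE, 10 of 29 were higher and 0 lower, against the 15.9% of all genes called as higher, led by the same 4 genes at 5.31 ± 0.28, 3.66 ± 0.41, 3.73 ± 0.27 and 2.95 ± 0.57. The UMIs of these 4 genes in ENR- and -VE-organoids are not given here, and a fold over few UMIs depends on the prior count. Between -VE and ENR, Ica1 alone was called (1.08 ± 0.10, adjusted p = 0.00169).

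A list of 6 processing enzymes of the constitutive pathway, which cells without granules use, did not move one way. Outside the class Cpm, a carboxypeptidase of the cell surface, was higher in Hyper- than in ENR-organoids (2.13 ± 0.32, adjusted p = 0.000628), and the convertases Pcsk5 (-1.53 ± 0.19, adjusted p = 0.000229) and Pcsk6 (-1.21 ± 0.19, adjusted p = 0.00076) were lower, so 3 of 6 were called where 23.2% of all genes were. In the class Cpm was the only one called of 4 tested (1.29 ± 0.29, adjusted p = 0.0137), where 7.40% of all genes were called.

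Summed over all kept cells, the levels mixed both populations with the number of enteroendocrine cells. That class made up 3.29%, 3.04% and 2.60% of kept cells in the ENR libraries, 3.05% and 2.07% in the -VE libraries and 3.45%, 3.04% and 4.34% in the Hyper libraries. The means differed by 0.633 percentage points between Hyper and ENR (exact two-sided permutation test, p = 0.3, with 0.1 the smallest p that 3 against 3 libraries allow), by 1.04 between Hyper and -VE (exact p = 0.4) and by -0.411 between -VE and ENR (exact p = 0.6), where 2 against 3 libraries allow 0.2 at the lowest, and the adjusted p was 0.6 in all 3. Without Hyper replicate 3 the first difference was 0.269 and the second 0.680, and without -VE replicate 2 the second was 0.553. The third was -0.254 without ENR replicate 1, -0.902 without -VE replicate 1 and 0.0796 without -VE replicate 2.

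Over all kept cells 2 of the 8 genes were called between Hyper and ENR, where 22.9% of 16037 genes were called. Scg2 was lower (5.90, 5.00 and 1.94 CPM in ENR against 1.39, 1.17 and 1.92 CPM in Hyper, -1.64 ± 0.41, adjusted p = 0.00966), and Pcsk1n was higher (1.39, 0.757 and 0.943 CPM against 3.48, 3.58 and 4.23 CPM, 1.75 ± 0.32, adjusted p = 0.00197). Scg5 rose by 0.67 ± 0.24 on the log2 scale, under a fold of 2 (adjusted p = 0.0428). Between Hyper and -VE 4 genes were called, where 18.6% of genes were called, namely Pcsk1n (1.66 ± 0.37, adjusted p = 0.00683), Pcsk1 (1.34 ± 0.33, adjusted p = 0.0116), Scg5 (1.06 ± 0.28, adjusted p = 0.0142) and Chga (1.21 ± 0.40, adjusted p = 0.0366). Without -VE replicate 2 only Pcsk1n of these was called, with Pcsk1 at 1.03 ± 0.39 (adjusted p = 0.0945) and Scg5 at 0.78 ± 0.31 (adjusted p = 0.106), and without Hyper replicate 3 Scg5 fell just under a fold of 2 (0.98 ± 0.30, adjusted p = 0.0361). The call of Chga was also lost with culture series as a block (1.11 ± 0.47, adjusted p = 0.0873) and in 5 of the 8 fits with 1 library left out (without -VE replicate 1 or 2, ENR replicate 2, or Hyper replicate 2 or 3, adjusted p 0.0547 to 0.166). Between -VE and ENR edgeR called 0, where 2.55% of genes were called, with Chga (-1.01 ± 0.40) and Pcsk1 (-1.14 ± 0.33) at an unadjusted p under 0.05, and DESeq2 called 1 (Pcsk1).

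In the colon most UMIs of Chga, Chgb, Scg3, Scg5, Pcsk1n and Cpe lay in cluster 16 of the deposited annotation, whereas most of those of Pcsk1 lay outside it in both libraries and, in the DSS library, so did 8 of the 9 Scg2 UMIs. The cluster had 16 cells (1.41% of 1132) in the normal library and 43 (2.22% of 1933) in the DSS library. Chga and Chgb were its leading genes by fold over the other clusters, Pcsk1n was the fourth and Scg5 the tenth, and 15 of 16 and 34 of 43 cells had UMIs of at least 3 of the 12 transcription factors, so it is called enteroendocrine-like. In the DSS library 5 of these cells also had UMIs of the leukocyte gene Ptprc. With 1 library per group there is no test, and intervals are exact 95% intervals for counting error only.

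Chga stood at 13048 CPM in the normal and 15093 CPM in the DSS cells of the cluster, a ratio of 1.16 (1.10 to 1.22), and Chgb at 22317 and 25198 CPM (1.13, 1.08 to 1.18). Pcsk1n stood at 4686 and 4842 CPM (1.03, 0.944 to 1.13). Both colonic values of Pcsk1n were above the 50.5 to 196 CPM of the organoid classes, and those of Chga above 657 to 2248 CPM, across libraries that differ in tissue, culture and annotation. Cpe stood at 1710 and 1199 CPM (0.701, 0.596 to 0.826). Scg2 had 15 UMIs (96.4 CPM) in the normal and 1 UMI (3.51 CPM) in the DSS cells, a ratio of 0.0364 (0.000864 to 0.236). Scg3 (109 and 98.2 CPM), Scg5 (527 and 438 CPM) and Pcsk1 (109 and 105 CPM) had intervals of the ratio that include 1.

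The hormones of the cluster differed between both libraries. Pyy was 20183 CPM in normal and 1606 CPM in DSS, Gcg 3574 and 7.01 CPM, Insl5 2250 and 45.6 CPM, while Tph1, the enzyme of serotonin synthesis, was 5206 and 7229 CPM. Over all kept colonic cells Pcsk1 was 6.58 CPM in normal and 3.27 CPM in DSS (ratio 0.497, 0.381 to 0.647), and Chga 104 and 136 CPM (1.30, 1.24 to 1.37). Of the Pcsk1 UMIs 114 of 131 in the normal and 76 of 106 in the DSS library lay outside cluster 16.

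**Figure D5:**
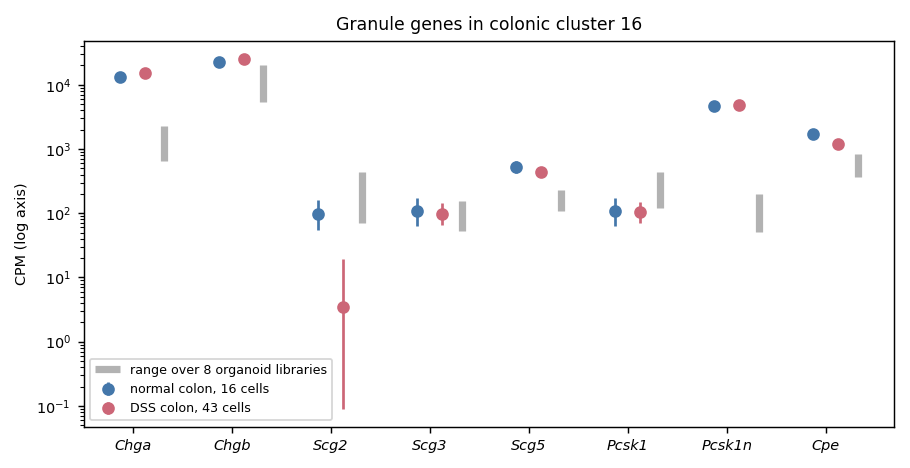
CPM of the 8 genes (log axis) in colonic cluster 16 of the normal and DSS libraries (points with exact 95% Poisson intervals), beside the range over the enteroendocrine classes of the 8 organoid libraries (grey bars). Pcsk1n, at 4686 and 4842 CPM, lies above the organoid range of 50.5 to 196 CPM, and Scg2 differs between both colonic libraries (96.4 and 3.51 CPM).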

How the data were processed

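The 8 genes, the gene lists and the tests were chosen with earlier results of these data known. Reads went through Cell Ranger (3.0.0 in the submitters' processing notes) on mm10 and cells through Seurat 3.1.4. The authors deposited UMI counts per gene and cell, not normalized, with a class or cluster for each of 25204 kept cells. The stated minimum of 1500 genes a cell is not met by 551 organoid and 824 colonic cells. For the 8 genes the merged table and the library matrices were compared over all kept cells, with 0 cells that differed. Library pairs shared 0 to 5 cell barcodes.

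Counts were summed per library over the class, the other cells and all kept cells, since cells are not replicates. All 8 organoid libraries entered 1 fit by group in edgeR 4.0.16 (R 4.3.3; TMM factors of 0.940 to 1.08, filterByExpr, glmQLFit and glmQLFTest), adjusted by Benjamini-Hochberg over all genes, and called where the adjusted p was under 0.05 and the change 2-fold or larger. CPM was taken over the summed cells, without TMM factors. DESeq2 1.42.0, other filters and scalings, thinned cells, fits without 1 library and a block for culture series were alternatives. Fits on stem, transit amplifying or goblet cells alone, without goblet cells and without TMM factors were added after the data were seen. Libraries of 1 culture series deviated together for Hyper- and ENR-organoids (3 pairs, r of 0.170 to 0.436 over all kept cells and 0.167 to 0.453 over other cells, different series -0.301 to 0.140), but not in the class. The fits were tested on simulated counts with known changes. Doublets were not called, and the authors' cells were used as deposited. Genes named were the 8, at most 4 called genes of each list and comparison with the largest change, the hormones used for grouping, Rest, and up to 2 genes most alike for each of the 8. Some genes of the lists are not reported here.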

Additional observations from a re-analysis of the deposited data

Results flagged for a closer look

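The change in the enteroendocrine class differed from that in other cells by the test of the difference itself (edgeR, adjusted p under 0.05 and a difference of at least 2-fold) for 10 combinations of gene and comparison. For Hyper against ENR the differences of the log2 fold change (class minus other cells) were -1.03 (Chga), -2.07 (Scg5), -1.74 (Pcsk1), -3.94 (Pcsk1n) and -3.49 (Cpe). For Hyper against -VE they were -1.59 (Scg5), -1.86 (Pcsk1), -2.24 (Pcsk1n) and -2.94 (Cpe), and for -VE against ENR -1.36 (Chga). All 10 are negative, that is, the change, not the level, was lower in the class than in other cells. Those of Pcsk1n rest on few UMIs outside the class (2, 4 and 1 in the ENR libraries) and are no support, for the reason given above. For Chga in -VE replicate 1, 49 of the 73 UMIs outside the class lay in 1.73% of goblet cells. Chgb passed on p with smaller differences, of -0.94 for Hyper against ENR (adjusted p = 3.70e-05) and -0.58 for Hyper against -VE (adjusted p = 0.0342). Comparisons that share a group of libraries are not independent of each other.

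Barcodes that the authors did not keep also held the 8 genes. Their summed level in these barcodes was lowest in ENR replicate 3 at 10.9 CPM and highest in Hyper replicate 2 at 138 CPM, against 203 and 277 CPM over the kept cells of the same libraries.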

How the results depend on the processing

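The limits are few libraries (2 or 3 a group), 61 to 107 enteroendocrine cells in each and low counts of the 8 genes outside that class. Of the 12 counts of called genes, 101 of 120 values under other settings and 81 of 96 with 1 library left out were within 1.5 times the reported count. None of the 49 fold changes of the 8 genes with an unadjusted p under 0.05 changed sign under any setting run. Of the other 41 fold changes, which are not printed, 26 changed sign under at least 1 setting.

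In the class, Hyper against ENR gave 1 in place of 2 without TMM factors and with cells taken by transcription factors (Scg2 remained), and 1 to 2 with 1 library left out. Hyper against -VE gave 2 in place of 1 with no filter, with DESeq2, with thinned cells and without the 5% of cells with most UMIs (adding Pcsk1n), and 0 to 3 with 1 library left out. There -VE against ENR gave, in place of 0, 2 with no filter (Chga and Pcsk1), 1 (Pcsk1) with DESeq2, without TMM factors, with thinned cells and without the 5% of cells with most UMIs, 1 (Chga) with only the 2 groups compared, 1 (Pcsk1) with the replicate block of culture series, and 0 to 2 with 1 library left out. Over all kept cells Hyper against -VE gave 1 to 5 in place of 4 with 1 library left out, and 3 with the replicate block, which lost Chga. There -VE against ENR gave 1 in place of 0 with DESeq2 and with thinned cells (Pcsk1) and with only the 2 groups compared (Chga), and 0 to 1 with 1 library left out. Outside the class Hyper against ENR gave 2 in place of 4 in stem cells alone (Pcsk1n and Cpe, with 0 to 2 UMIs in each ENR library, so that neither call is support) and 4 to 5 with 1 library left out, Hyper against -VE lost Scg5 with thinned cells, and -VE against ENR gave 1 in place of 0 with DESeq2 and without goblet cells (Pcsk1). The difference between populations for -VE against ENR gave 0 to 1 in place of 1 with 1 library left out. The replicate block changed no other call of the 8 genes. Pairing by series held for the comparison of Hyper with ENR alone, and -VE shares only 2 pairs with each group. The share of enteroendocrine cells in -VE minus ENR reversed to 0.0796 percentage points without -VE replicate 2 (range -0.902 to 0.0796). Over all kept colonic cells the ratio of DSS to normal was 1.61 over all barcodes and 1.22 without Ptprc cells for Chga, 1.51 and 1.15 for Chgb, and 1.36 for Pcsk1n and 1.66 for Cpe over all barcodes. The causes were not tested.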

Other observations

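Hyper replicate 2 and -VE replicate 1 stood apart within goblet cells for Chga, at 5.03 and 7.20 CPM against 0.164 to 1.68 CPM in the other 6 libraries. In -VE-organoids 95.7% of the 70 goblet Chga UMIs lay in cells with at least 10 UMIs of it, and in Hyper-organoids 73.5% of 34. For Pcsk1 no goblet cell had more than 7 UMIs.

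Paneth cells, which also secrete from granules, had 0 Pcsk1n UMIs in all 8 libraries, with 2 to 59 Paneth cells a library. The Hyper libraries had 10, 2 and 2 of them, where 3 UMIs would be 11.4, 74.5 and 65.8 CPM. A level like that of other Hyper cells could not be seen there. Other genes of the 8 were found in Paneth cells, such as Cpe with 6, 1 and 0 UMIs in the Hyper libraries.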
